A study of Mus musculus with 8 samples.

Results

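The metabotropic glutamate receptors are a family of G protein-coupled receptors through which glutamate adjusts neuronal excitability and transmitter release. The 7 family members described here, Grm2, Grm3, Grm4, Grm5, Grm6, Grm7 and Grm8, were taken by gene symbol from the 55414 Ensembl genes that each count file lists. Of these 7 genes, 6 passed the filter on low counts and were among the 17721 genes tested, and Grm6 did not.

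Bulk RNA-seq libraries, 4 per group, had been made from the dorsal root ganglia (DRG) of mouse embryos at E18.5. These ganglia, beside the spinal cord, house somatosensory neurons. AD1 OE embryos were AdvillinCre/+;Rosa26Dach1/+. In them Cre recombinase is made from the Advillin locus, whose activity marks somatosensory neurons, and turns on a Dach1 copy at Rosa26 by removing a stop cassette. Control embryos were Advillin+/+;Rosa26Dach1/+, so both groups carried the silent Rosa26 allele and only AD1 OE carried Cre. The Rosa26Dach1 mice were of mixed C57Bl/6J and CD1 background. The comparison asked how ganglion transcripts differ when Dach1, a transcriptional regulator normally restricted to few sensory neuron subtypes by this age, is expressed from Rosa26 in sensory neurons at large. Whole ganglia were used, which hold neurons and glia, so that fewer cells of a type and less RNA per cell cannot be told apart.

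The family falls into 3 groups by sequence and coupling. Group I receptors, here Grm5, couple through Gq to phospholipase C and calcium release and sit mostly at postsynaptic sites. Group II receptors (Grm2, Grm3) and group III receptors (Grm4, Grm6, Grm7, Grm8) couple through Gi/o, lower adenylyl cyclase activity and restrain transmitter release. Somatosensory neurons release glutamate themselves, and receptors of groups II and III on their terminals are known as brakes on that release.

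The libraries held 22339059 to 44025625 counts and no pair of replicates agreed within counting noise. CPM stands for counts scaled to the library size. Dach1 averaged 95.9 ± 5.28 CPM (SD, n = 4) in the AD1 OE libraries, against 32.6 ± 1.64 CPM in the Control libraries. This was a log2 fold change of 1.56 (adjusted p = 1.77e-08, edgeR quasi-likelihood test), and the counts do not separate the native gene from the Rosa26 copy. Avil, which encodes Advillin and carries Cre on 1 of its copies in AD1 OE, was at 52.0% of its Control level. The summed levels of 10 sensory neuron markers (8440 to 9220 CPM in AD1 OE, 8874 to 9218 CPM in Control) and of 10 glial markers (1662 to 2085 and 1761 to 2067 CPM) overlapped between groups. The sum of 6 fibroblast markers also overlapped, at 5777 to 6542 CPM in AD1 OE (mean 6166) and 4947 to 6065 CPM in Control (mean 5540), and 4 of the 6 had an unadjusted edgeR p under 0.05. Its part in the receptor results was not tested. Of 65 tested markers in 9 cell type lists, 0 were called by edgeR, DESeq2 or limma-voom, while 14 had an unadjusted edgeR p under 0.05. The share of all tested genes at that unadjusted limit is not given here. Libraries with Xist numbered 1 in AD1 OE and 3 in Control, and the others had Y-linked transcripts, so sex and genotype partly coincided.

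Grm7 and Grm3 were lower in AD1 OE than in Control, at 65.5% and 63.2% of the Control level. Both passed the thresholds used throughout, an adjusted p under 0.005 with an absolute log2 fold change over 0.25. Grm5 (63.5% of Control) and Grm8 (121% of Control) had groups that did not overlap but adjusted p-values above that threshold, and the intervals for Grm4 and Grm2 included 0. Thus 2 of the 6 tested receptors were called lower, where 1.78% of all tested genes were, and 0 were called higher, where 0.784% of all tested genes were (2.57% in either direction). The edgeR test gave 4 members an unadjusted p under 0.05, a limit for which no share of all tested genes is given. DESeq2 called 4, 3 lower and 1 higher, against 3.71% of all tested genes. With an adjusted edgeR p under 0.05 and no limit on the fold change, 4 members passed, against 6.55% of all tested genes. Groups did not overlap for 3 members that were lower (Grm3, Grm5, Grm7), as for 7.26% of all tested genes, and for 1 that was higher (Grm8), as for 5.69%. The median log2 fold change of the 6 tested members was -0.33, beside 0.002 for all tested genes.

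**Figure D1:**
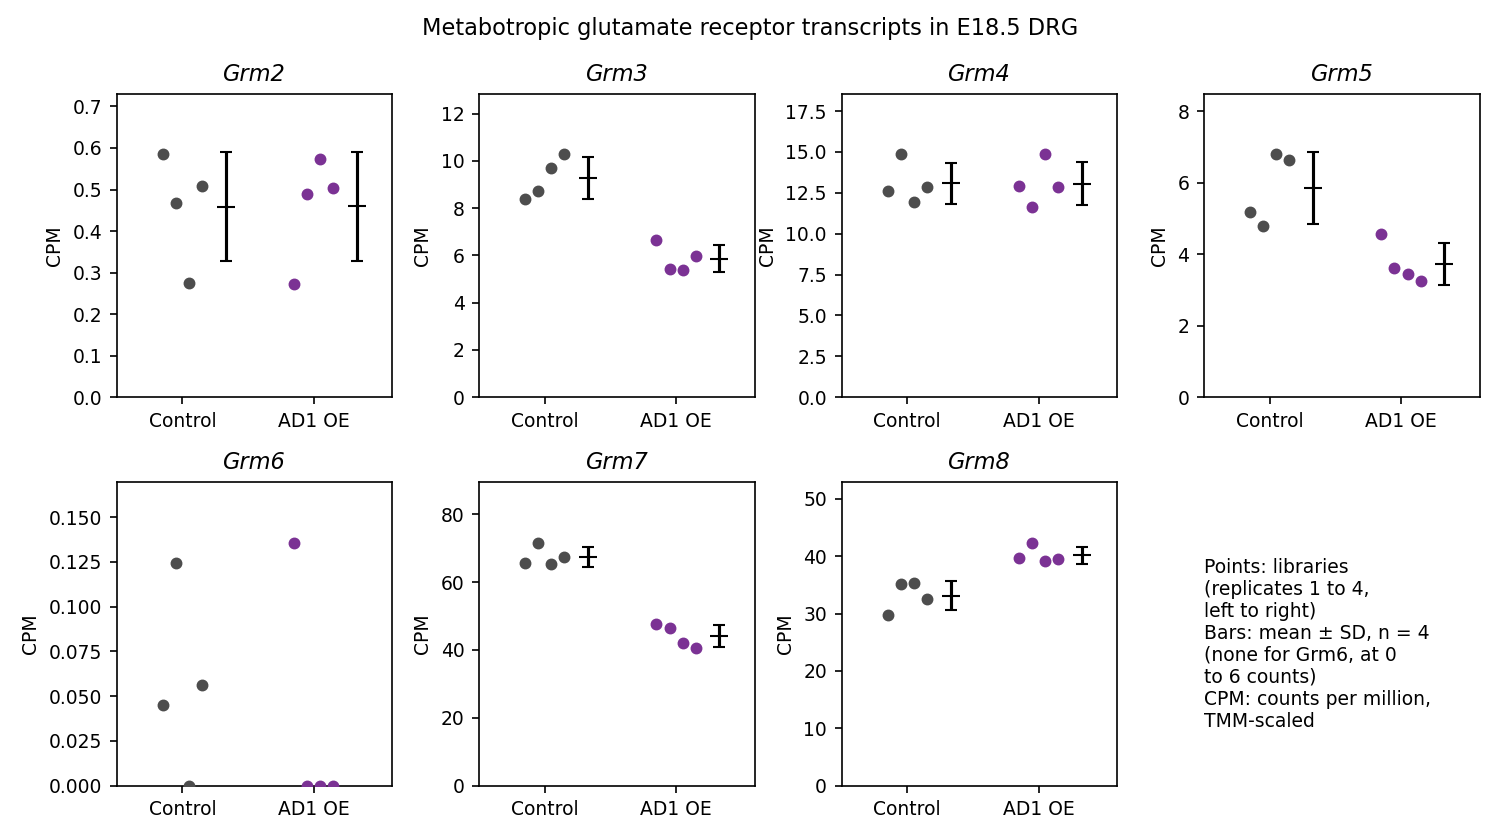
Level of each of the 7 receptors in every library, in CPM on an axis from 0 with its own scale per gene. Points are libraries and bars show mean ± SD of 4, with no bar for Grm6. The AD1 OE points lie below all Control points for Grm3, Grm5 and Grm7 and above them for Grm8, and they are mixed for Grm2, Grm4 and Grm6.

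The sequences just upstream of Grm3, Grm7 and Grm8 are shown because these are the called members and the receptor whose levels lay the other way. Each line gives the 250 bases before the RefSeq transcription start nearest the annotated gene start, 5′ to 3′ on the gene's strand, on build GRCm38.p6. Capitals mark matches, on either strand, to the GC box (GGGCGG) and the CCAAT box (CCAAT). Grm3 lies at chr5:9725353-9725602 on the minus strand, Grm7 at chr6:110645348-110645597 on the plus strand and Grm8 at chr6:28135147-28135396 on the minus strand.
Grm3: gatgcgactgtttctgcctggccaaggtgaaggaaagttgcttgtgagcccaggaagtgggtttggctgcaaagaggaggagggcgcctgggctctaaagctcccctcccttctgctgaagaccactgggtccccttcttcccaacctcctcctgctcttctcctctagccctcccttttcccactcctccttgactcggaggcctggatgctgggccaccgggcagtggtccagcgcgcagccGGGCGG
Grm7: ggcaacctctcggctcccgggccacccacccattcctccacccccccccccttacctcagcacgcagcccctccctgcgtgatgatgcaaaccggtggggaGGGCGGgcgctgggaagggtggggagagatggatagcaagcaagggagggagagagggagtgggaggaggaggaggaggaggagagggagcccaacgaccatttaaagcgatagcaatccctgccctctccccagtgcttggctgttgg
Grm8: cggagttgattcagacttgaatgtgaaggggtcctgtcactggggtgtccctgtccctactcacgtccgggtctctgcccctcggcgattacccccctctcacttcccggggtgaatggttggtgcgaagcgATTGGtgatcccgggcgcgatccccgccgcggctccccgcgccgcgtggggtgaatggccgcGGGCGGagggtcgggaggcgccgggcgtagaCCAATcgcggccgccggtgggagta
Each of the 3 windows held 1 GC box, which 33.0% of the 32536 promoters of this length hold. Of the 3, only the Grm8 window held CCAAT, at 2 places, as 33.8% of all promoters do at least once. None of the 3 held TATAAA (12.3% of all promoters) or the CRE half-site TGACG (17.9%). The Grm8 window was also the richest of the 3 in CpG, with 29 against 8 in Grm3 and 9 in Grm7, where the median promoter had 6 (quartiles 2 and 16). The GC content was 62.4% for Grm3, 65.2% for Grm7 and 68.4% for Grm8, beside a median of 52.4% (quartiles 45.2% and 61.2%). The Grm2 window held 3 GC boxes and 1 CCAAT, and the Grm6 window 0 and 1. No window was read for Grm4 and Grm5.

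Receptor levels differed widely. Per kilobase of exon (union of all annotated exons), the order in Control was Grm7 at 11.5 CPM per kb (range 11.1 to 12.2), Grm8 at 3.35 (3.01 to 3.57), Grm3 at 3.04 (2.75 to 3.37), Grm4 at 2.19 (2.00 to 2.49), Grm5 at 0.571 (0.468 to 0.664), Grm2 at 0.0938 and Grm6 at 0.0104. Grm7 was thus the leading family member, 3.42-fold above Grm8 by this length. Between neighbours in this order, only Grm8 and Grm3 had overlapping Control libraries. In AD1 OE, Grm7 still led at 7.50 CPM per kb, and Grm8 followed at 4.06 with no overlap with the next. Grm4 (2.19 CPM per kb) then ranked above Grm3 (1.92), with overlapping libraries. With the length of the longest transcript in place of the exon union, the Control order was the same, but Grm8 (6.91 CPM per kb) no longer overlapped Grm3 (3.04) and Grm3 overlapped Grm4 (2.84).

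**Figure D2:**
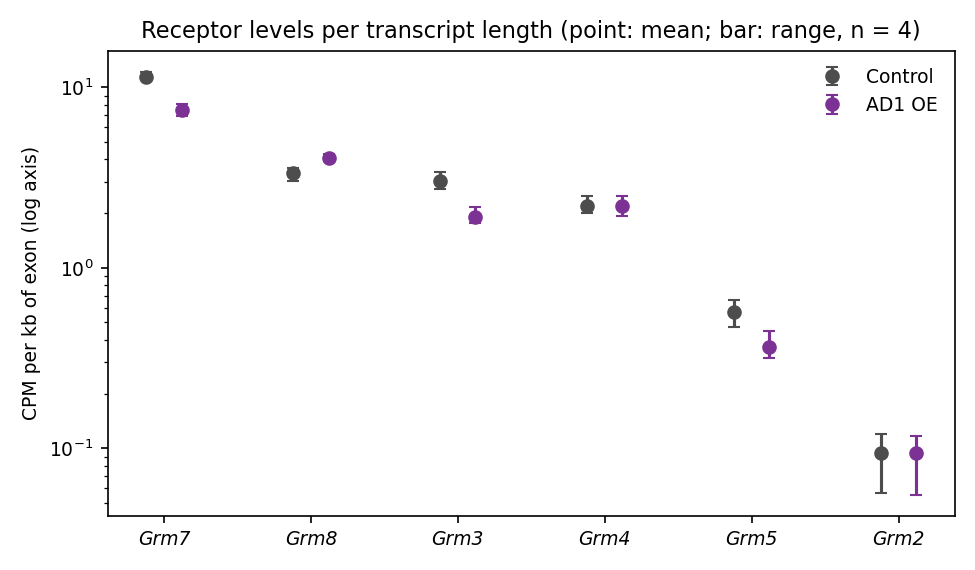
Level of 6 receptors in CPM per kb of exon on a log axis, ordered by the Control mean. Points are means and bars the range of 4 libraries. Grm7 leads in both groups, at 11.5 in Control and 7.50 in AD1 OE, and Grm3 and Grm4 stand in the other order in AD1 OE.

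Among group I receptors, Grm5 encodes the Homer-bound receptor that links glutamate to calcium release. Grm5 (ENSMUSG00000049583, chromosome 7) was low and was read from 81 to 235 counts per library. It stood at 4.57, 3.61, 3.44 and 3.24 CPM in AD1 OE 1 to 4 and at 5.17, 4.80, 6.80 and 6.64 CPM in Control 1 to 4. Every AD1 OE library lay below every Control library, with AD1 OE 1 and Control 2 closest to each other. The means were 3.71 ± 0.588 and 5.85 ± 1.01 CPM, a log2 fold change of -0.64 (SE 0.15, 95% interval -0.97 to -0.32), which did not pass in the edgeR test (adjusted p = 0.0217). DESeq2 called it (adjusted p = 0.00277), as did edgeR without the filter on low counts (adjusted p = 7.12e-04). Without that filter edgeR called 747 genes in all, against 455 with it. The edgeR adjusted p of Dach1 was then 9.32e-30 in place of 1.77e-08, at a log2 fold change of 1.56 in both fits.

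In group II, Grm3 encodes a receptor found on neurons and on glia, and Grm2 its close relative that sits mainly on axons. Grm3 (ENSMUSG00000003974, chromosome 5) was read from 122 to 364 counts per library. It stood at 6.65, 5.44, 5.39 and 5.97 CPM in AD1 OE 1 to 4 and at 8.37, 8.72, 9.71 and 10.3 CPM in Control 1 to 4. The groups did not overlap, and the highest AD1 OE library lay well under the lowest Control library. The mean fell from 9.27 ± 0.880 CPM in Control to 5.86 ± 0.586 CPM, with a log2 fold change of -0.65 (SE 0.10, 95% interval -0.87 to -0.44, edgeR adjusted p = 0.00136). The call depended on single libraries. Without AD1 OE 2, AD1 OE 4, Control 3 or Control 4 the adjusted p was 0.00679, 0.00598, 0.00626 or 0.00618, just over the threshold, with the log2 fold change at -0.66 to -0.60.

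Grm2 (ENSMUSG00000023192, chromosome 9) was barely detected, with 7 to 18 counts per library. Its mean was 0.460 ± 0.131 CPM in AD1 OE (0.271 to 0.574 CPM) and 0.459 ± 0.132 CPM in Control (0.275 to 0.585 CPM), and the groups overlapped. At this depth the log2 fold change of -0.06 had a 95% interval from -0.73 to 0.62 (edgeR adjusted p = 0.953), so that a change as large as that of Grm3 was not detectable.

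In group III, Grm7 encodes the low-affinity receptor of presynaptic active zones and Grm8 a high-affinity presynaptic receptor. The pair made up most of the family's counts, and its values lay in opposite directions. Grm7 (ENSMUSG00000056755, chromosome 6) was read from 1041 to 2386 counts per library. It stood at 47.6, 46.4, 42.1 and 40.6 CPM in AD1 OE 1 to 4 and at 65.5, 71.6, 65.3 and 67.4 CPM in Control 1 to 4. The highest AD1 OE library lay far below the lowest Control library. The mean fell from 67.4 ± 2.93 CPM to 44.2 ± 3.34 CPM, a log2 fold change of -0.61 (SE 0.06, 95% interval -0.74 to -0.49, edgeR adjusted p = 4.15e-05). It was called in all 19 alternative fits, with a log2 fold change of -0.65 to -0.55 and an adjusted p of at most 9.71e-04. Grm7 shares exon bases with Gm20387 on the other strand, itself at 1.38 to 1.95 CPM across AD1 OE and 1.62 to 2.52 CPM across Control. Reads of the pair can be told apart only by strand, and no source used here says whether strand was counted.

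Grm8 (ENSMUSG00000024211, chromosome 6) was read from 662 to 1754 counts per library. It stood at 39.7, 42.4, 39.2 and 39.5 CPM in AD1 OE 1 to 4 and at 29.8, 35.1, 35.3 and 32.5 CPM in Control 1 to 4. The groups did not overlap, with AD1 OE higher, and Control 1 was the lowest library of all. The means were 40.2 ± 1.46 and 33.2 ± 2.59 CPM, a log2 fold change of 0.28 (SE 0.06, 95% interval 0.15 to 0.40), which did not pass in the edgeR test (adjusted p = 0.0157). DESeq2 called it (adjusted p = 6.14e-04), as did edgeR without the filter on low counts (adjusted p = 0.00151), a fit that called 747 genes in all against 455.

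Grm4 encodes a presynaptic receptor and had near-equal means. Grm4 (ENSMUSG00000063239, chromosome 17) stood at 12.9, 11.6, 14.8 and 12.8 CPM in AD1 OE 1 to 4 and at 12.6, 14.9, 11.9 and 12.9 CPM in Control 1 to 4. The libraries of both groups were interleaved. Means were 13.1 ± 1.33 and 13.1 ± 1.25 CPM, with a 95% interval of the log2 fold change from -0.20 to 0.19 (edgeR adjusted p = 0.993), an interval that leaves out changes of the size seen for Grm7.

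Grm6 encodes the receptor that retinal ON bipolar cells use. Grm6 (ENSMUSG00000000617, chromosome 11) had 6 counts in AD1 OE 1 and 0 in the other 3 AD1 OE libraries, and 1, 4, 0 and 2 counts in Control 1 to 4. Most libraries were at or under the floor of 3 counts, which stood at 0.0678 to 0.135 CPM, so no fold change is given.

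**Figure D3:**
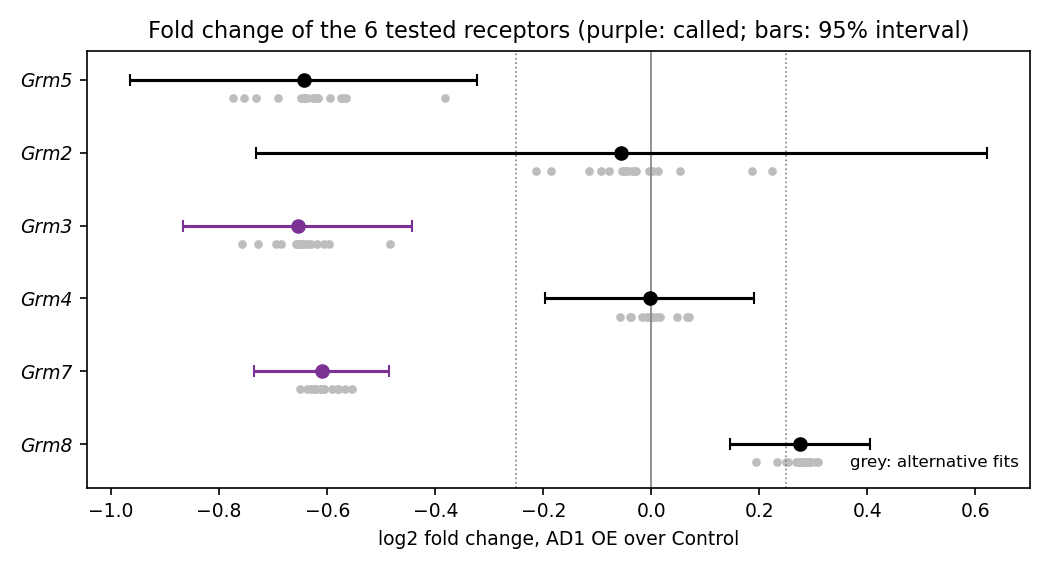
Log2 fold change of the 6 tested receptors, AD1 OE over Control, from edgeR, with bars for the 95% interval and grey points for the same gene under the alternative fits. Dotted lines mark the fold limit of 0.25 in each direction. Grm7 (-0.61) and Grm3 (-0.65), in purple, were called, and the interval of Grm2 is the widest.

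Grm7 and Grm8 can be compared within each library by the ratio of their CPM, which does not depend on scaling between libraries. A difference in the ratio does not by itself show that both genes differed, and edgeR called Grm7 alone of the pair. The ratio was 1.20, 1.09, 1.07 and 1.03 in AD1 OE 1 to 4 and 2.20, 2.04, 1.85 and 2.07 in Control 1 to 4. Grm7 counts thus exceeded Grm8 counts clearly in Control and were nearly level with them in AD1 OE. The mean ratio was 1.10 ± 0.0729 in AD1 OE and 2.04 ± 0.145 in Control (SD, n = 4), given as a description. The ratio of Grm3 to Grm7, both of which fell, overlapped between groups at 0.133 ± 0.0132 and 0.138 ± 0.0152. Summed over the 7 receptors, the level was 107 ± 4.13 CPM in AD1 OE (103 to 112 CPM) and 129 ± 5.59 CPM in Control (122 to 136 CPM). The share of Grm7 in that sum was 41.0% ± 1.55 in AD1 OE and 52.2% ± 1.37 in Control, and that of Grm8 was 37.4% ± 1.44 and 25.6% ± 1.27.

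Control 1 and Control 4 held more spinal cord transcripts than the other libraries. The summed level of 13 spinal cord markers was 37.5 and 24.5 CPM there and at most 14.0 CPM in Control 2 and 3. In AD1 OE it was 12.2, 11.4 and 13.5 CPM in replicates 1, 2 and 4, and AD1 OE 3 lay between Control 3 and Control 4. Of the 13, 3 were under 1 CPM in every library. Olig1, an oligodendrocyte lineage gene, was at 8.37 CPM in Control 1 and 3.78 CPM in Control 4, beside 0.678 to 1.65 CPM elsewhere. Other spinal cord genes over 1 CPM in some library were Olig2, Pax2, Gad1, Gad2, Slc6a5, Slc32a1, Nkx6-1, Tal1 and Gata2. Among Control libraries, Grm3 was lowest in Control 1 and highest in Control 4, Grm5 was highest in Control 3 and Grm7 was highest in Control 2. Grm8 was lowest in Control 1 and Control 4, the same libraries in which the spinal cord sum was highest. Without Control 1 and Control 4, a comparison chosen after the data were seen, the log2 fold change was -0.63 for Grm7 (edgeR adjusted p = 9.71e-04), -0.64 for Grm3 (adjusted p = 0.0116), -0.62 for Grm5 (adjusted p = 0.116) and 0.19 for Grm8 (adjusted p = 0.140).

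**Figure D4:**
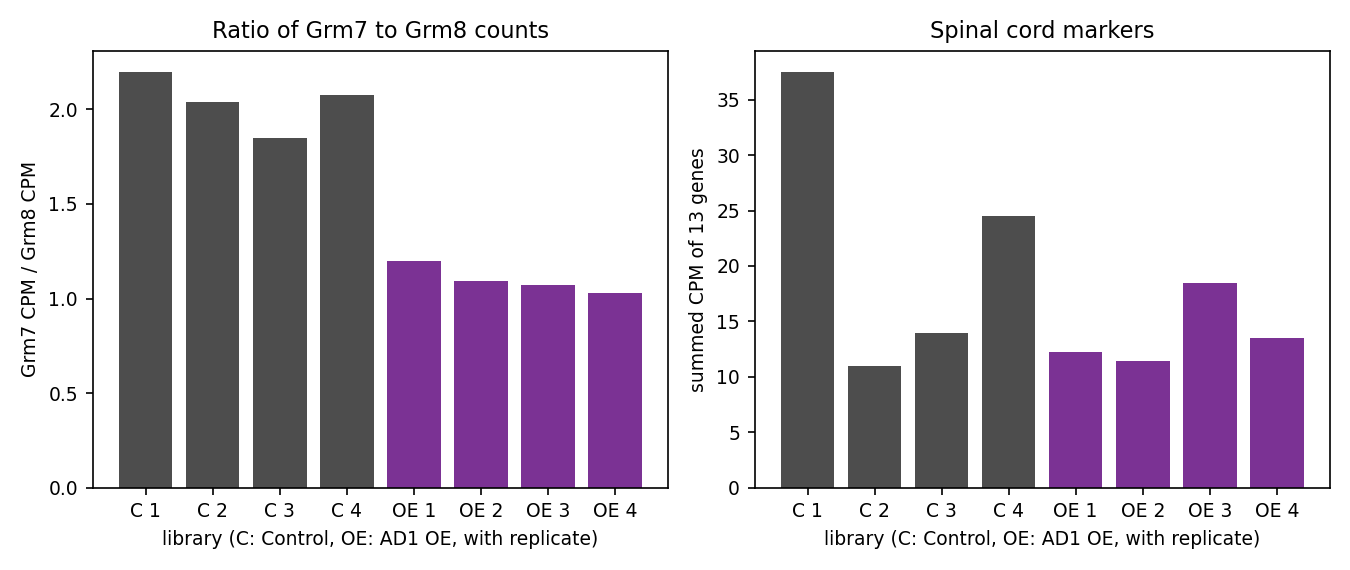
Left, ratio of Grm7 CPM to Grm8 CPM in each library, from 1.85 to 2.20 in Control (C) and from 1.03 to 1.20 in AD1 OE (OE). Right, summed CPM of 13 spinal cord markers in the same libraries, highest in C 1 at 37.5 and C 4 at 24.5. Bars start at 0 and each is 1 library.

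Sex was read per library from Xist and Y-linked transcripts, and the receptors were compared within each sex as a description. Among libraries with Xist (1 AD1 OE, 3 Control) and with Y-linked transcripts (3 AD1 OE, 1 Control), the log2 ratio of means was -0.68 and -0.59 for Grm7, -0.73 and -0.77 for Grm3, -0.70 and -0.80 for Grm5, and 0.23 and 0.32 for Grm8. The directions of these 4 receptors were the same in both sexes. For Grm4 (0.18 and -0.05) and Grm2 (0.38 and -0.27) they were not. With the sex score as a term, edgeR still called Grm7 (log2 fold change -0.64, adjusted p = 1.66e-04) and Grm3 (-0.76, adjusted p = 0.00135).

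The genes around the receptors were read from a list of 96, of which 92 were tested. Of these 92, 3 were called lower and 1 higher (4.35%), beside 2.57% of all tested genes, and 40 had an unadjusted edgeR p under 0.05. The share of all tested genes under that unadjusted limit is not given here. Counts at that limit, for this list and for its roles, are therefore not read as a result about these genes. DESeq2 called 10 of the 92, beside 3.71% of all tested genes. The median log2 fold change of the 92 was -0.05. Ncdn encodes neurochondrin (norbin), a binding partner of the group I receptor encoded by Grm5. It stood at 260, 242, 253 and 243 CPM in AD1 OE 1 to 4 and at 318, 335, 305 and 336 CPM in Control 1 to 4. The groups did not overlap, and Ncdn fell by 0.37 on the log2 scale (edgeR adjusted p = 2.30e-04). It was the only called gene of the 11 scaffolds and binding partners (median -0.02, 4 with an unadjusted p under 0.05). DESeq2 also called Homer1 and Homer2, Homer scaffolds that bind Grm5, whose edgeR log2 fold changes were 0.26 (adjusted p = 0.0116) and 0.30 (adjusted p = 0.0166).

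Among the 9 tested class C relatives, Gpr179, an orphan receptor known from retinal ON bipolar cells, was called. It stood at 1.85, 1.83, 2.18 and 2.27 CPM in AD1 OE 1 to 4 and at 3.24, 3.64, 4.01 and 3.42 CPM in Control 1 to 4, with no overlap. Gpr179 fell by 0.82 on the log2 scale (SE 0.13, edgeR adjusted p = 0.00187), but the call was lost without AD1 OE 1, AD1 OE 2, Control 2, Control 3 or Control 4 (adjusted p 0.0101, 0.00775, 0.00859, 0.00831 and 0.00601). It was also lost with the sex score as a term (edgeR adjusted p = 0.0155). Gabbr1, a subunit of the GABA-B receptor and the most abundant of these relatives, averaged 532 ± 14.3 CPM in AD1 OE against 556 ± 18.6 CPM in Control (edgeR adjusted p = 0.466).

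Transduction genes were mostly uncalled. In the Gi/o arm that groups II and III use, edgeR called 1 of 22 tested genes, 13 had an unadjusted p under 0.05 and the median log2 fold change was -0.08. The called gene was Gng4, a G protein gamma subunit, at 85.4, 90.4, 84.8 and 81.5 CPM in AD1 OE 1 to 4 and 60.8, 69.1, 67.3 and 63.6 CPM in Control 1 to 4. Gng4 rose in AD1 OE with no overlap between groups (log2 fold change 0.39, SE 0.05, edgeR adjusted p = 3.51e-04). DESeq2 called 1 further gene of this arm, Adcy2, an adenylyl cyclase, whose edgeR log2 fold change was -0.28 (adjusted p = 0.0166). Gnb1, the most abundant gene of that arm, was at 841 ± 19.5 and 869 ± 22.5 CPM (adjusted p = 0.599). In the Gq arm that group I uses, edgeR called 0 of 13 and limma-voom 0, DESeq2 called 1, and 4 had an unadjusted edgeR p under 0.05. Its most abundant gene was Prkca, a protein kinase C, at 345 ± 24.6 CPM in AD1 OE against 422 ± 30.6 CPM in Control (log2 fold change -0.29, edgeR adjusted p = 0.0161), the gene that DESeq2 called.

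Of 13 tested genes that desensitize receptors or shorten G protein signals, edgeR called Rgs3 and 7 had an unadjusted p under 0.05. DESeq2 also called Grk3, a receptor kinase, whose edgeR log2 fold change was -0.27 (adjusted p = 0.0254). Rgs3 speeds the shut-off of Gi/o and Gq proteins, and it stood at 29.9, 29.0, 29.0 and 28.7 CPM in AD1 OE 1 to 4 and at 36.2, 37.6, 36.4 and 37.4 CPM in Control 1 to 4. Rgs3 fell by 0.34 on the log2 scale with no overlap between groups (SE 0.04, edgeR adjusted p = 4.26e-04). Rgs4, of the same family and the most abundant gene of the whole list over all 8 libraries, averaged 955 ± 92.5 CPM in AD1 OE against 869 ± 57.4 CPM in Control (adjusted p = 0.343). Without Control 1 and Control 4, edgeR called none of the 92 genes, beside 254 of all 18253 genes tested in that fit. Of the 92, 29 had an unadjusted p under 0.05. The log2 fold change in that fit was -0.36 for Ncdn (edgeR adjusted p = 0.00507) and -0.34 for Rgs3 (adjusted p = 0.00849). It was 0.33 for Gng4 (adjusted p = 0.00528) and -0.91 for Gpr179 (adjusted p = 0.00878).

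The other 3 roles had no gene called by edgeR. Of 4 tested effector channels, 1 had an unadjusted p under 0.05 and DESeq2 called 1, Kcnj3, a Gi/o-gated potassium channel subunit (edgeR log2 fold change 0.36, adjusted p = 0.0172). Cacna1b, the N-type calcium channel pore, was at 379 ± 16.8 and 374 ± 21.1 CPM (edgeR adjusted p = 0.906). Of 12 genes of glutamate supply and uptake, 5 had an unadjusted p under 0.05 and DESeq2 and limma-voom called 0, with a median log2 fold change of -0.12. Their most abundant gene was Slc17a6, the vesicular glutamate transporter VGLUT2, at 387 ± 15.3 CPM in AD1 OE against 416 ± 14.2 CPM in Control (edgeR adjusted p = 0.240). Of 7 NMDA receptor subunits, 2 had an unadjusted p under 0.05, DESeq2 and limma-voom called 0 and the median was -0.18. Grin1, the obligatory subunit, was at 116 ± 9.08 and 113 ± 2.38 CPM (edgeR adjusted p = 0.706).

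**Figure D5:**
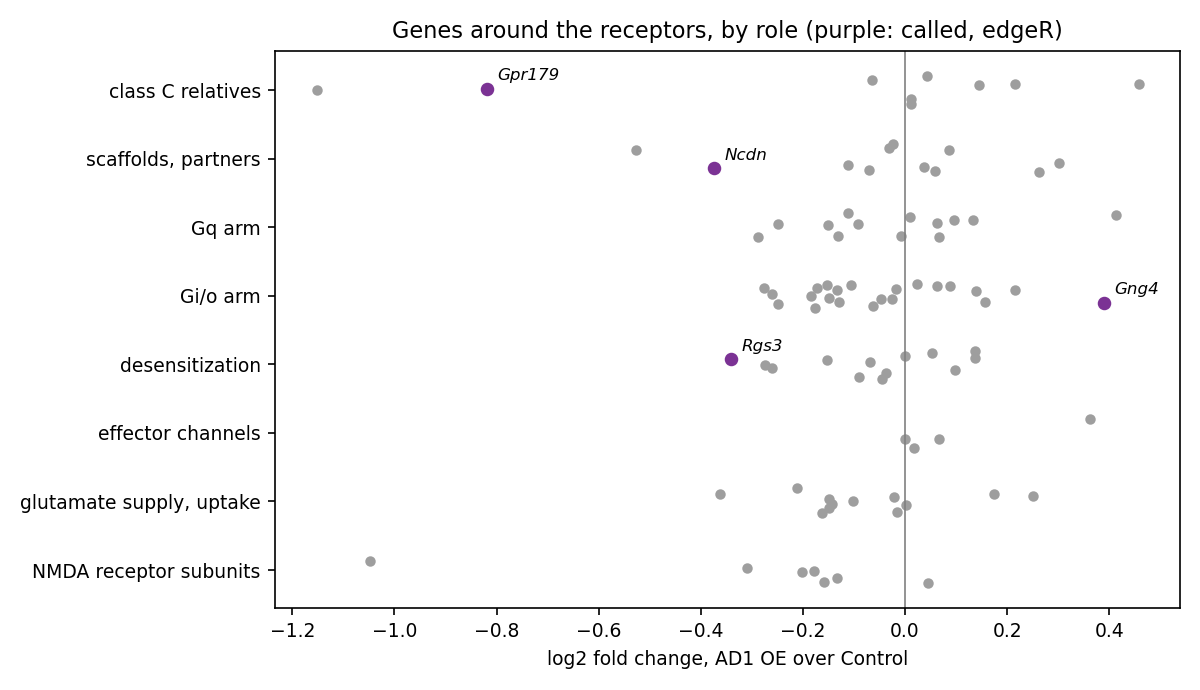
Log2 fold change of the tested genes around the receptors, AD1 OE over Control, 1 point per gene in rows by role, with vertical scatter only to separate points. The 4 called genes are purple and named, Gng4 (0.39) to the right of 0 and Ncdn (-0.37), Rgs3 (-0.34) and Gpr179 (-0.82) to the left.

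The genes whose log2 CPM over the 8 libraries was most like that of each called receptor were taken from 10997 genes that averaged at least 10 CPM. For Grm3 they were Pogk, Adcyap1, which encodes the neuropeptide PACAP, and Camkv, with Pearson r of 0.994, 0.990 and 0.990. For Grm7 they were Dclk3, the adhesion molecule gene Alcam and Rgs3, with r of 0.990, 0.990 and 0.987. These values hold the difference between the groups, and 56 genes for Grm3 and 104 genes for Grm7 had an r over 0.95. After the group means were removed, r was 0.952, 0.913 and 0.917 for the 3 genes beside Grm3 and 0.952, 0.834 and 0.805 for those beside Grm7. All points share the same 8 libraries, and the values describe these libraries alone.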

How the data were processed

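Poly(A) libraries of E18.5 DRG (Illumina Stranded mRNA Prep, NovaSeq6000) were made per sample. Per the labels and the study's methods, the authors ran bcl2fastq 2.20.0.422, STAR 2.7.8a on GRCm39 and featureCounts 2.0.1, and deposited raw counts per Ensembl gene, with 22339059 to 44025625 counts per library. The strand setting of the counting is not given in the sources used here. Groups and replicate numbers came from the labels. The members and the gene lists were chosen with earlier results of these data known.

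The edgeR package (4.0.16, under R 4.3.3) was used for the main comparison (filterByExpr, TMM, quasi-likelihood F test on genotype alone, Benjamini-Hochberg adjustment over 17721 genes). A call needed an adjusted p below 0.005 together with an absolute log2 fold change above 0.25, the study's limits. CPM used TMM-scaled library sizes, and 95% intervals came from the fit. Nothing in the labels says that libraries came from separate litters, so p-values measure the spread between these samples. The floor of 3 counts covers counting error only. DESeq2 1.42.0, limma-voom (limma 3.58.1), other scalings, filters and thresholds, the replicate block, a sex score (log2 of the summed Y-linked Uty, Kdm5d, Eif2s3y and Ddx3y over Xist, pseudocount of 0.01 CPM) and leaving out libraries were the alternatives. Symbols (52081 of 55414 IDs matched), lengths and shared exons came from GENCODE M21 on GRCm38, an older build, and promoters from RefSeq on GRCm38.p6, where 5 of the 7 members had an entry.

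The text names all members, Dach1 and Avil, every called gene and the most abundant gene of each role in the 96-gene list, the 3 genes most like each called member, and spinal cord markers over 1 CPM. Homer1, Homer2, Kcnj3, Adcy2, Grk3 and Gm20387 were named after their values were seen. Some genes that this rule covers are not reported here. The edgeR steps were tested on simulated counts.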

Additional observations from a re-analysis of the deposited data

Results flagged for a closer look

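Among 50 groups of 4 values screened, 3 held a library whose gap to the nearest other library exceeded Dixon's critical share of the group's range, and chance gives about 1 such group in 20. The highest AD1 OE library for Grm8, AD1 OE 2, stood at 42.4 CPM while the other 3 AD1 OE libraries lay between 39.2 and 39.7 CPM. The lowest summed level of 6 erythroid markers in Control was 223 CPM, in Control 4, and AD1 OE 4 was at 235 CPM. The highest summed level of 6 sympathetic neuron markers in Control was 9.36 CPM, and AD1 OE libraries lay between 1.63 and 2.68 CPM for the same markers. That library was Control 1, which also had the highest spinal cord sum and the lowest Grm8. The part of erythroid or sympathetic transcripts in the receptor results was not tested.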

How the results depend on the processing

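Grm7, Dach1 and Avil kept their direction and their call in all 19 alternative fits, and Grm5 and Grm8 kept their direction in all 19. Among all genes, 455 were called, 316 lower and 139 higher. The count was 747 (476 lower, 271 higher) without the filter on low counts, 1161 (733 and 428) at an adjusted p under 0.05 with no fold limit, 129 (100 and 29) with an absolute log2 fold change over 1, and 254 (191 and 63) without Control 1 and Control 4. It ran from 289, without AD1 OE 1, to 420 when single libraries were left out. Of the members, edgeR called 2 here, and 4 were called by DESeq2, without the filter and at the looser p. At an adjusted p under 0.05 with an absolute log2 fold change over 1, edgeR called 0 members. At that fold limit 0 members had an unadjusted p under 0.05. No tested member reached the limit, the largest log2 fold change being -0.65 for Grm3. Without Control 1 and Control 4 the count was 1, and it ran from 1 to 2 when single libraries were left out. Of the 92 tested pathway genes, 4 were called here, 10 by DESeq2 and 7 by DESeq2 with a prior on fold changes. Without the filter 11 were called, and at the looser p 13. With the larger fold limit at the looser p, edgeR called 0 (2 at that fold limit and an unadjusted p under 0.05). Without Control 1 and Control 4 it called 0 (29 at an unadjusted p under 0.05). Over all 17721 tested genes, DESeq2 called 3.71%, DESeq2 with the prior 597 genes, and the looser p 6.55%. Without the filter, 36426 genes were tested. The 2 near-zero log2 fold changes reversed. Grm4, at -0.00262, became 0.00198 with upper-quartile factors, 0.0161 without composition factors, 0.00176 without the filter, 5.87e-04 with a filter of 1 CPM in 4 libraries and 0.0700 with the sex score, and ran from -0.0586 to 0.0658 when single libraries were left out. Grm2 became 0.00362 with the sex score and 0.22 without Control 1 and Control 4, and ran from -0.21 to 0.19 when single libraries were left out. Grm2 had no value under the filter of 1 CPM in 4 libraries. The cause of these changes was not tested. The scalings moved the median of all genes by at most 0.02.

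The replicate number is shared between the groups, but equal numbers did not deviate together. The correlations of same-numbered libraries were -0.01, -0.05, -0.04 and 0.31, and 1 of 4 AD1 OE libraries correlated best with the Control library of its own number. With the replicate block, edgeR called 1 member, Grm7, and Grm3 had an adjusted p of 0.00544 at a log2 fold change of -0.66. Of the 4 called pathway genes, Gpr179 lost its call with the block (adjusted p = 0.00759). Fits that leave out libraries have fewer samples. Depth limits Grm2 and Grm6 most, with 7 to 18 and 0 to 6 counts per library.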
